A study of Mus musculus with 8 samples.

Results

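The Zfp genes are mouse genes whose symbol is Zfp followed by a number, with or without a final letter, a name given to zinc finger proteins. Of 385 such symbols in the RNA-seq files, 227 had a mean mRNA level of at least 1 RPKM over the 4 RNA-seq libraries and were taken as the Zfp genes described here, out of 24535 symbols in all. RPKM is the read number scaled by gene length and library depth. The members were thus chosen by symbol and selected on this mean level, which ran from 1.003 to 93.3 RPKM, with a median of 3.09. Of the 158 symbols left out, 17 were at 0 in all 4 libraries.

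A C2H2 zinc finger is a short fold that holds a zinc ion between a pair of cysteines and a pair of histidines, and rows of such fingers read DNA base by base. Many mouse Zfp proteins also carry a KRAB domain, which recruits Trim28 and the histone methyltransferase Setdb1 and is best known for silencing retroelements and keeping imprints. Other proteins of the same name bind RNA, degrade mRNA, ubiquitinate ribosomes or act as DNA-binding factors without KRAB, since the symbol records a sequence motif and not a shared task.

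The livers came from C57BL/6 mice fed from week 8 on a diet with 45% of its energy as fat. The first group had no betaine (HF) and the other drank water with 2% (w/v) betaine (HB). The labels give post natal week 25 as the age and put 6 mice in each group. No transgene or deletion is named, and mice on standard diet were not analysed here. RNA-seq of polyadenylated RNA and Ribo-seq, which sequences the footprints that ribosomes protect on mRNA, each had 2 libraries per group. The question is how the level and the ribosome occupancy of these mRNAs differed with betaine.

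RNA-seq depth lay between 11661207 and 22543471 reads on genes per library, with the HB libraries the deeper, and Ribo-seq depth between 141890 and 1056546, with the HB libraries the shallower. A Zfp gene had a median of 595 mRNA reads but 14 footprint reads over its 4 libraries, so the mRNA results are the more precise ones. The summed mRNA of 7 hepatocyte markers was 44380 and 46400 RPKM in HF against 54760 and 51180 RPKM in HB, that of 7 Kupffer cell markers 100.7 and 107.4 against 98.9 and 88.4, that of 7 endothelial markers 62.0 and 69.4 against 57.0 and 66.0, that of 7 stellate cell markers 38.8 and 36.6 against 74.9 and 46.6, and that of 5 cholangiocyte markers 26.2 and 31.9 against 15.7 and 26.0. The Kupffer cell sum was carried by Clec4f, at 72.6 and 64.4 RPKM in HF and 48.9 and 49.6 RPKM in HB, while 4 of the 7 Kupffer cell markers had a positive log2 fold change (median 0.12), among them Vsig4 at 4.49 and 8.80 against 16.8 and 11.0 RPKM. The stellate sum was carried by Dcn, at 21.9 and 22.4 RPKM in HF and 57.8 and 30.6 RPKM in HB, and 4 of the 6 stellate markers tested had a negative log2 fold change (median -0.02). The endothelial sum was carried by Clec4g, at 30.8 and 43.3 against 39.4 and 47.5 RPKM, while 5 of the 7 endothelial markers were lower in both HB libraries than in both HF libraries (median -0.40). Of the markers in these 3 lists, 0 met either mRNA call rule used for the Zfp genes, while hepatocyte Serpina1a (log2 fold change 1.34, adjusted p = 0.0186 in limma) and lymphocyte Ptprc (-1.01, adjusted p = 0.0151) met the one on adjusted p. Markers of lymphocytes were low throughout, at 6.78 and 9.36 against 3.44 and 3.46 over 7 genes. In a whole liver, fewer cells of a type and less RNA per cell cannot be told apart, and the part of these shifts in the results below was not tested.

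The Zfp genes took 7042 and 7100 reads of every 1000000 in the HF mRNA libraries and 3445 and 3457 in the HB mRNA libraries. Both HB libraries thus lay far under both HF libraries for the family as a whole. Without Zfp36, which has one of the highest levels, the values were 6786 and 6900 against 3350 and 3347. In the footprint libraries the same values were 4933 and 4498 in HF and 2987 and 3552 in HB, again with no overlap but with a smaller gap.

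**Figure D1:**
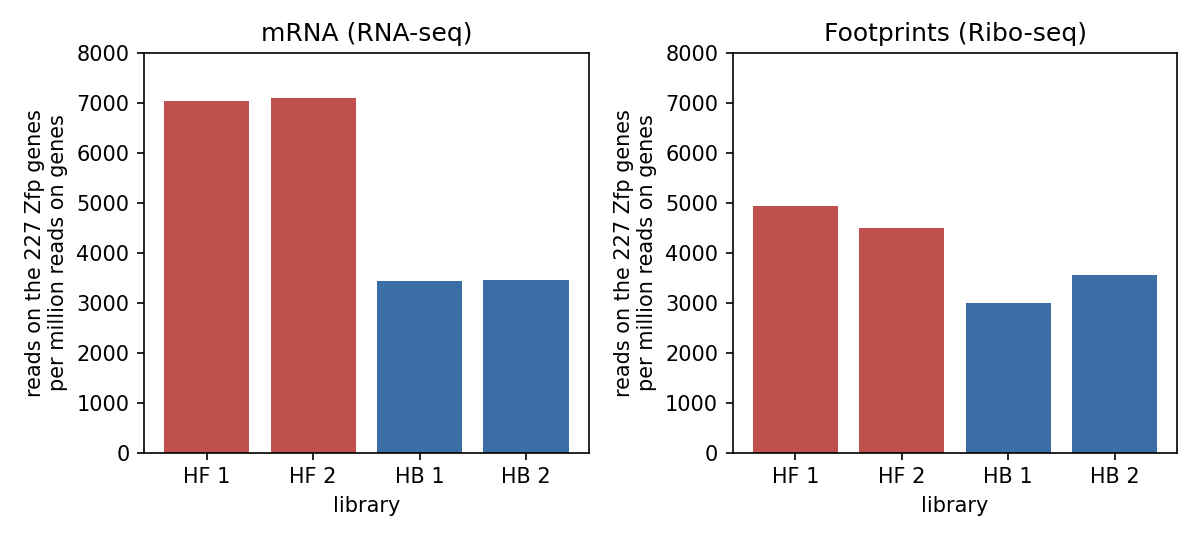
Reads of every 1000000 that fell on the 227 Zfp genes (vertical axes, from 0) in each library, 1 bar per library, for mRNA on the left and footprints on the right. The mRNA bars of HF stand at 7042 and 7100 and those of HB at 3445 and 3457, and the footprint bars differ less.

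Gene by gene, 36 of the 227 Zfp genes (15.9%) fell in HB and 0 rose, where a call in limma on log2(RPKM + 1) needs an unadjusted p under 0.001 together with a log2 fold change larger than 1 in size. Over all 10687 symbols tested the same rule called 6.56% lower and 2.3% higher, and over the 10460 that are not Zfp genes 6.36% and 2.35%. With a Benjamini-Hochberg adjusted p under 0.05 from the same limma fit in place of the unadjusted one, 65 Zfp genes were lower and 0 higher, beside 12.7% lower and 5.01% higher among all symbols tested. The log2 fold change was below 0 for 212 Zfp genes and above 0 for 15, and its median was -0.65 (quartiles -1.06 and -0.32). The median over all symbols tested was -0.19. For 178 Zfp genes both HB libraries lay below both HF libraries and for 7 above both, while over all symbols tested the shares were 43.3% and 24.8%. With log2 values shifted to a common median, 14 Zfp genes were called lower beside 2.72% of all symbols, with medians of -0.38 and 0.08, and with voom on recovered reads 18 beside 3.7%. With no filter on the mean 9 of the 36 were called, beside 1.12% of 16758 symbols.

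The threshold on the mean admits some genes through the group in which they are high. Of the 227, 38 had an HF mean of at least 1 and an HB mean under 1, and 2 had the reverse. Among the 187 with both means at least 1, the median log2 fold change was -0.63, and 31 (16.6%) were called lower and 0 higher, beside -0.15, 6.3% lower and 2.37% higher among 9822 other symbols with both means at least 1. The HB libraries lay below both HF libraries in 76.5% of the 187 and in 41.0% of those others. Below the threshold, 141 Zfp symbols had a mean above 0 and under 1 RPKM. Their HB libraries lay below both HF libraries in 41.8% and above both in 7.09%, against 24.1% and 13.9% of the 5930 other symbols in that range. At the edge itself, Zfp59 (1.18 and 1.78 RPKM in HF, 0.456 and 0.597 in HB), Zfp157 (1.46 and 1.35, then 0.560 and 0.667) and Zfp120 (0.733 and 1.24, then 1.58 and 0.486) were the last members inside. Zfp775 (0.777 and 2.05, then 0.467 and 0.704), Zfp930 (1.09 and 1.52, then 0.933 and 0.424) and Zfp40 (1.85 and 1.39, then 0.402 and 0.298) were the first outside.

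The log2 fold changes were more negative among the more abundant Zfp genes. The 72 Zfp genes with a mean of 1 to 2 RPKM had a median log2 fold change of -0.50, and 2.78% of them were called lower, against -0.23 and 1.8% of 1442 other genes at that level. Between 2 and 5 RPKM the values were -0.61 and 11.8% for 85 Zfp genes, against -0.28 and 5.25% for 2440 others. Between 5 and 10 RPKM they were -0.99 and 25.0% for 36 Zfp genes, against -0.27 and 6.69% for 2077 others. At 10 RPKM and over, 15 of 34 Zfp genes (44.1%) were called lower with a median of -1.18. The 4501 other genes there, some far above any Zfp gene, had a median of -0.01 and 8.26% called lower. The 3653 of them up to the highest Zfp mean had a median of -0.07. A pseudocount of 1 shrinks the fold change of low genes. With 0.1 in its place the Zfp medians over the 4 bins were -0.84, -0.82, -1.15 and -1.26, so that the lowest bins no longer differed in that order, and those of the other genes were -0.37, -0.36, -0.30 and -0.02. At a pseudocount of 1, the correlation across genes of the log2 fold change with the log2 mean level was -0.41 over the Zfp genes and 0.14 over the other genes. It is given as a description, since all points come from the same 4 libraries and this pseudocount shrinks the low genes.

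**Figure D2:**
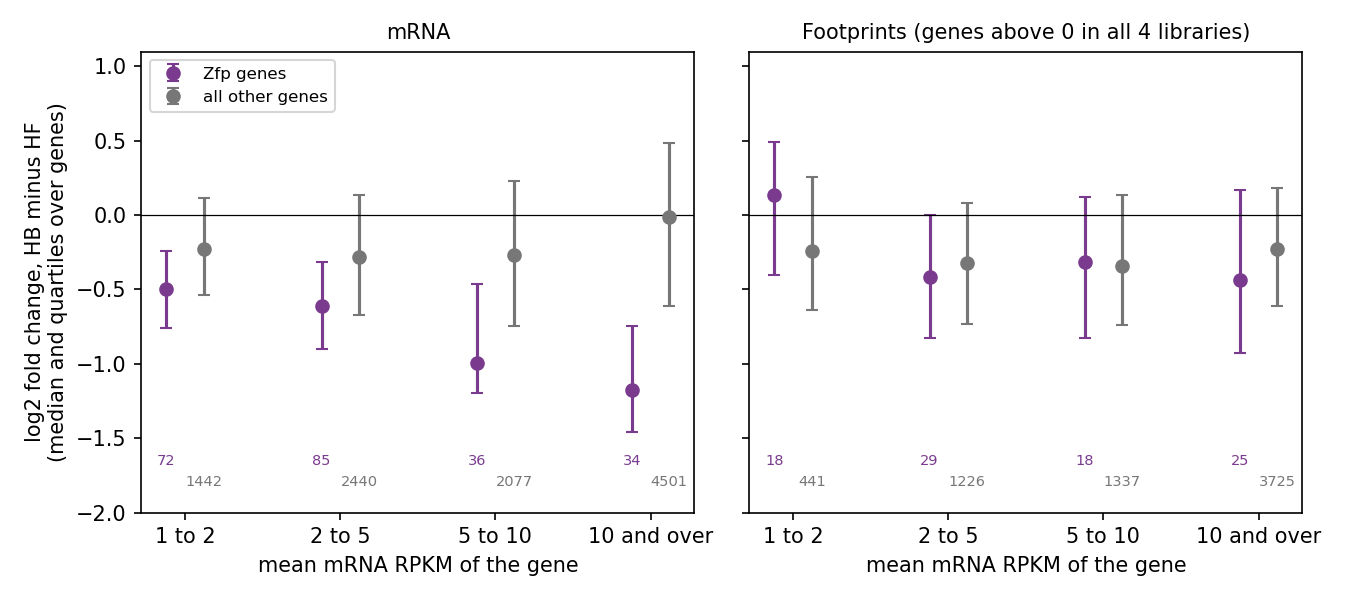
Log2 fold change of HB minus HF (vertical axis) for Zfp genes and all other genes in bins of mean mRNA level in RPKM (horizontal axis), for mRNA on the left and footprints on the right. Points are medians, bars run from the lower to the upper quartile over genes, and the numbers along the bottom count the genes. In mRNA the Zfp median drops from -0.50 in the lowest bin to -1.18 in the highest, and in footprints the median of each set lies between the quartiles of the other.

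Length and base composition were set beside these values. The longest annotated transcript of a Zfp gene had a median of 3522.5 bases and 44.5% GC, against 3160 bases and 49.9% for the other genes tested. Among transcripts under 2000 bases the median log2 fold change was -0.81 for 18 Zfp genes and 0.07 for 2470 others, and among those of 2000 to 3000 bases -0.78 for 64 and -0.10 for 2268. Among those of 3000 to 5000 bases it was -0.69 for 97 and -0.24 for 3472. The gap was smallest at 5000 bases and over, with -0.57 for 47 Zfp genes (10.6% called lower) and -0.36 for 2017 others (7.78%). Within each of 4 bands of GC the Zfp median lay between -0.80 and -0.60 and that of the other genes between -0.24 and -0.09. In every band of length and of GC the Zfp median was lower than that of the other genes.

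Of single genes, the 10 called with the smallest p are given first. Zfp612, which lies on chromosome 8 (chr8:110079746-110092741 in GRCm38, plus strand) and codes for 16 C2H2 fingers, had 13.4 and 16.4 RPKM in HF and 2.42 and 3.32 RPKM in HB. Its means were 14.9 ± 2.10 and 2.87 ± 0.630 RPKM (SD, n = 2), a ratio of 5.18, the largest of the 36 genes called. The limma log2 fold change was -2.04 (SE 0.26, adjusted p = 0.00523).

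Zfp715 (chr7:43296197-43313294, minus strand), a KRAB protein with 19 fingers, had 12.8 and 18.0 RPKM in HF and 2.55 and 3.47 RPKM in HB, a log2 fold change of -2.02 (SE 0.27). Zfp451 (chr1:33761545-33814595, minus strand), whose product is a SUMO ligase of the nucleus, had 24.3 and 20.1 RPKM in HF and 4.04 and 6.04 RPKM in HB, a log2 fold change of -1.95 (SE 0.27). Zfp653 (chr9:22055411-22071376, minus strand) had 26.7 and 21.6 RPKM in HF and 3.57 and 6.37 RPKM in HB, a log2 fold change of -2.11 (SE 0.29). In each of these 3 genes the lower HF library was more than 3 times the higher HB library. All had an adjusted p of 0.00523.

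Zfp692 (chr11:58307069-58314627, plus strand) encodes a factor first described as binding a promoter element of the gluconeogenic gene Pck1 that responds to the AMPK activator AICAR. It had 30.0 and 22.2 RPKM in HF and 4.75 and 7.50 RPKM in HB, a log2 fold change of -1.94 (SE 0.29, adjusted p = 0.00525 in limma). Zfp579 had 22.8 and 20.8 RPKM in HF and 4.07 and 6.71 RPKM in HB, a log2 fold change of -1.86. Zfp263 (chr16:3744093-3750790, plus strand) had 16.3 and 14.1 RPKM in HF and 4.53 and 3.97 RPKM in HB, a log2 fold change of -1.62. The groups of these 3 genes did not overlap.

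Zfp433, a KRAB gene on chromosome 10 with 17 fingers, had 9.17 and 6.63 RPKM in HF and 2.03 and 1.46 RPKM in HB. Zfp182, a KRAB gene on the X chromosome with 14 fingers, had 4.40 and 4.25 RPKM in HF and 1.01 and 0.781 RPKM in HB. Their log2 fold changes were -1.69 and -1.49. The groups of Zfp182 were well apart even at a few RPKM, with an SD of 0.103 in HF and 0.165 in HB (n = 2).

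Among the most abundant Zfp mRNAs, Zfp488 (chr14:33967070-33978764, minus strand), known as a transcriptional repressor that promotes oligodendrocyte formation, had 69.6 and 83.8 RPKM in HF and 23.9 and 22.3 RPKM in HB. Its means were 76.7 ± 10.0 and 23.1 ± 1.13 RPKM (SD, n = 2) and its log2 fold change was -1.69 (SE 0.25, adjusted p = 0.00525 in limma). Zfp276 (chr8:123254195-123269745, plus strand) had 56.1 and 73.0 RPKM in HF and 8.15 and 19.4 RPKM in HB, a log2 fold change of -2.25 (SE 0.37). The HB libraries of Zfp276 differed more from each other than those of the other abundant members. Of its exonic bases 16.6% are shared with Fanca on the opposite strand, and the kit named in the labels does not mark strand, so reads of the 2 genes cannot be told apart there.

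Zfp970 and Zfp972 lie on chromosome 2 at chr2:177464733-177478129 (plus strand) and chr2:177903340-177925613 (minus strand), in a cluster of closely related zinc finger genes. Zfp970 had 127.4 and 119.7 RPKM in HF and 55.0 and 46.3 RPKM in HB, a log2 fold change of -1.27 (SE 0.25). Zfp972 had 76.0 and 75.0 RPKM in HF and 20.4 and 30.6 RPKM in HB, a log2 fold change of -1.56 (SE 0.27). Genes of such clusters share sequence, so the split of reads between these copies is uncertain, although both fell.

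**Figure D3:**
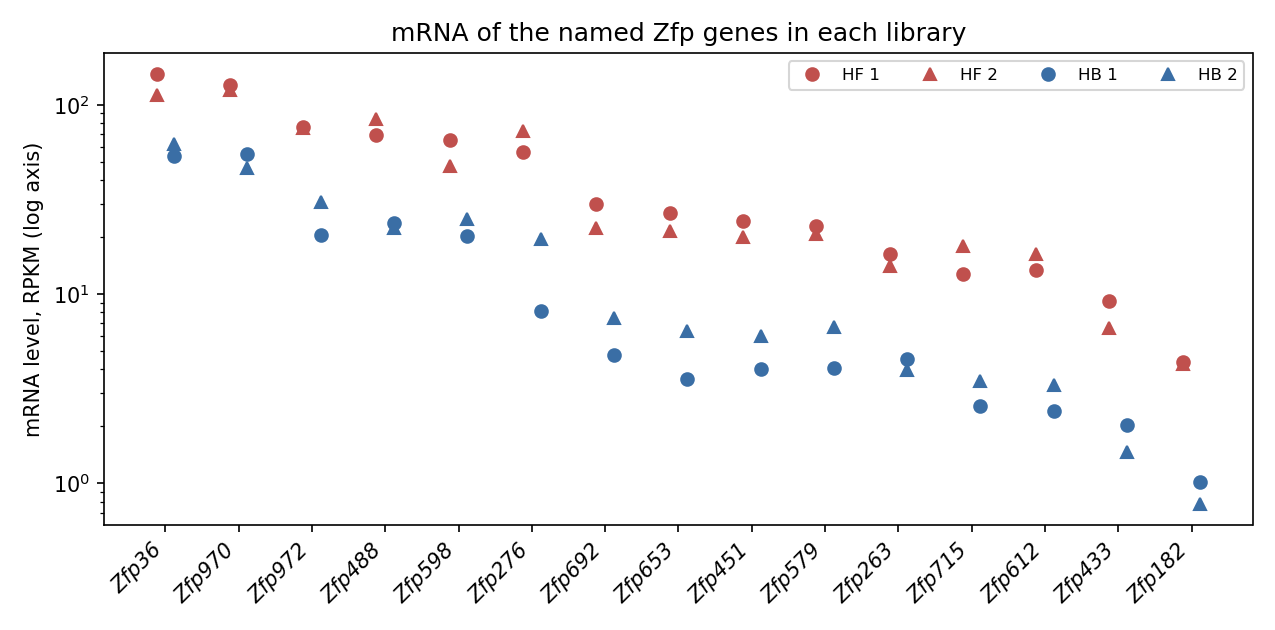
mRNA level in RPKM (vertical axis, log scale) of the 10 Zfp genes called lower with the smallest p and the 6 Zfp genes with the highest mean level, 1 of which is in both sets, with 1 point per library (circle for replicate 1, triangle for replicate 2). For each of these genes both HB points lie below both HF points, from Zfp36 at the top of the range to Zfp182 at the bottom.

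All 36 genes called lower had groups that did not overlap, ratios of HF to HB means between 2.44 (Zfp970) and 5.18 (Zfp612) with a median of 3.51, and adjusted p-values between 0.00523 and 0.0112. Without HF replicate 1, HF replicate 2, HB replicate 1 or HB replicate 2, the number of Zfp genes called lower was 26 (12%), 34 (15.7%), 30 (13.3%) or 40 (17.7%), beside 5.05%, 7.13%, 5.76% or 9.79% of all symbols, and 15 of the 36 were called in all 4 such fits.

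The Zfp genes were then read by role. Zfp598 (chr17:24669687-24682016, plus strand), the ubiquitin ligase that marks collided ribosomes, had 65.4 and 47.3 RPKM in HF and 20.3 and 24.8 RPKM in HB, a log2 fold change of -1.27 (SE 0.27, adjusted p = 0.0107 in limma), and was called. Zfp622, a factor in the maturation of the large ribosomal subunit, had 11.6 and 9.47 RPKM in HF and 8.44 and 8.54 RPKM in HB and was not called (log2 fold change -0.28, SE 0.25). Of 7 genes listed for RNA binding and splicing, 6 were tested, with a median log2 fold change of -0.66. By either rule 0 were called, beside 6.56% (unadjusted) and 12.7% (adjusted) of all symbols called lower. Zfp638, a nuclear protein with a part in silencing unintegrated retroviral DNA, had 6.54 and 7.03 RPKM in HF and 4.43 and 2.57 RPKM in HB. Zfp207, a kinetochore and spindle protein, had 28.7 and 34.1 RPKM in HF and 23.8 and 16.6 RPKM in HB. The adjusted p-values of this pair were 0.0536 and 0.112. The remaining 4 of this list had log2 fold changes of -0.10 (Zfp106), -0.69 (Zfp326), -0.60 (Zfp346) and -0.91 (Zfp830).

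Of 14 transcription factors without KRAB that were tested, all had a negative log2 fold change, although Zfp277 and Zfp687 turned positive with a common median and with voom. Their median was -0.88, and 3 were called lower (21.4%, beside 6.56% of all symbols). Besides Zfp451 these were Zfp131, a BTB domain factor, with 14.4 and 11.1 RPKM in HF and 4.59 and 2.94 RPKM in HB, and Zfp592, a partner of the chromatin reader Zmynd8, with 17.3 and 13.6 RPKM in HF and 4.16 and 6.45 RPKM in HB. Their log2 fold changes were -1.54 (SE 0.28) and -1.40 (SE 0.28). Zfp687, which sits in the same complex as Zfp592, had 1.83 and 1.55 RPKM in HF and 1.73 and 1.64 RPKM in HB, a log2 fold change of -0.003 (SE 0.23). These partners thus differed, Zfp592 being called and Zfp687 overlapping between groups, a difference that was not itself tested. Zfp335 (log2 fold change -1.15), a factor of neural progenitors, and Zfp219 (-1.13) passed the adjusted threshold only, at adjusted p-values of 0.0137 and 0.0199 in limma. Zfp335 shares 23.3% of its exonic bases with Pcif1 on the opposite strand. Zfp281, a factor of embryonic stem cells, had 8.19 and 7.25 RPKM in HF and 3.74 and 3.05 RPKM in HB, a log2 fold change of -0.99 just inside the fold limit. Zfp143 (-0.66), Zfp148 (-0.65), Zfp277 (-0.15), Zfp217 (-0.41), Zfp318 (-0.86), Zfp512 (-0.90) and Zfp703 (-0.28) were not called by either rule.

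Of 6 genes listed for imprint and retroelement silencing, 0 were called by the unadjusted rule and 1 by the adjusted one. Among all symbols these rules called 6.56% and 12.7% lower. Zfp57, which keeps methylation at imprinted regions, had 2.67 and 1.04 RPKM in HF and 0.264 and 0.226 RPKM in HB, a log2 fold change of -1.14 (SE 0.29, adjusted p = 0.0208 in limma). It passed the threshold of 1 RPKM on the mean only through HF, the group in which it was high. Zfp445, which acts beside Zfp57 at imprints, had a higher level, with 51.7 and 47.2 RPKM in HF and 30.2 and 23.7 RPKM in HB, and a log2 fold change of -0.86 (SE 0.25). Zfp932, a repressor of endogenous retroviruses, had 5.33 and 7.91 RPKM in HF and 3.53 and 2.32 RPKM in HB (-0.95). Zfp809, which silences murine leukaemia virus through its primer binding site, had 20.3 and 22.3 RPKM in HF and 29.2 and 15.9 RPKM in HB, and the HB pair surrounded the HF pair. Zfp568 (-0.01), a repressor of a placental Igf2 promoter, and Zfp961 (-0.08) also overlapped between groups. The ubiquitin ligase Zfp91 had 14.8 and 13.5 RPKM in HF and 14.7 and 8.95 RPKM in HB and was not called.

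The 15 Zfp genes with a positive log2 fold change were all short of a call. The largest value, 0.89 (SE 0.41, adjusted p = 0.129 in limma), belonged to Zfp982, which had 1.79 and 1.57 RPKM in HF and 7.25 and 2.00 RPKM in HB and so rested on 1 library. Without HB replicate 2, it was the 1 Zfp gene called higher. Zfp706, a small protein with a single finger, had 16.3 and 14.6 RPKM in HF and 22.5 and 22.8 RPKM in HB, with a log2 fold change of 0.52 (SE 0.24, adjusted p = 0.135). Its HB libraries lay above both HF libraries.

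Zfp genes with and without a KRAB domain had like mRNA medians. A KRAB A box pattern was found in the longest open reading frame of 97 of 225 Zfp genes, with a median of 12 fingers against 7 in the 128 without. The KRAB genes were lower expressed, at a median of 2.07 against 4.32 RPKM. Their median log2 fold change was -0.64 with 13 called lower (13.4%), against -0.68 with 23 called lower (18.0%) in the others, beside 6.56% of all symbols. At 1 to 2 RPKM the medians were -0.52 for 46 KRAB genes and -0.50 for 25 without, and at 2 to 5 RPKM -0.83 for 38 and -0.54 for 46. At 5 to 10 RPKM they were -0.83 for 6 KRAB genes and -0.99 for 30 without, and at 10 RPKM and over -1.06 for 7 and -1.27 for 27. By number of fingers, the median was -0.93 for 6 genes with no finger pattern (2 called lower), -0.70 for 36 genes with 1 to 4, -0.66 for 67 with 5 to 9 and -0.63 for 116 with 10 or more. No difference between these classes was tested.

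Zfp genes cluster on a few mouse chromosomes. The 53 on chromosome 7 had a median log2 fold change of -0.71 with 7 called lower, the 31 on chromosome 17 a median of -0.63 with 4 called lower, the 16 on chromosome 2 a median of -0.83 with 3 called lower and the 15 on chromosome 13 a median of -0.59 with 2 called lower. On these 4 chromosomes the medians of the other genes were -0.27, -0.26, -0.16 and -0.03. The shares called lower were 13.2%, 12.9%, 18.8% and 13.3% for the Zfp genes against 6.15%, 8.11%, 6.8% and 7.18% for the others. The 17 on chromosome 8 had a median nearer to 0, at -0.41, with 4 called lower (23.5%). The other genes there had -0.22 and 5.56%. On every chromosome with Zfp genes their median was negative, from -1.69 over 3 genes on chromosome 14 to -0.21 over 4 genes on chromosome 10.

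Corepressors that KRAB proteins use, and other silencing factors, were read from a list of 29 genes, of which 26 were tested. Their median log2 fold change in mRNA was -0.65, with 5 called lower (19.2%) and 0 higher, beside 6.56% and 2.3% of all symbols tested. The 5 were Morc3 (32.7 and 25.8 RPKM in HF, 4.70 and 7.24 RPKM in HB), a nuclear body ATPase, Morc2a (21.4 and 16.3, then 4.34 and 5.30), an ATPase of the HUSH silencing pathway, the histone methyltransferase Ehmt1 (24.1 and 19.0, then 4.78 and 8.05), the NuRD helicase Chd3 (62.1 and 62.5, then 18.8 and 26.1) and the chromatin remodeller Atrx (8.55 and 8.12, then 3.52 and 2.28). Trim28, the common KRAB corepressor, had 34.2 and 34.6 RPKM in HF and 15.1 and 20.5 RPKM in HB, a log2 fold change of -0.93 (SE 0.26) inside the fold limit. Setdb1 had 10.9 and 10.5 RPKM in HF and 4.14 and 4.90 RPKM in HB (-1.09), a change past the adjusted threshold only. By the adjusted rule 8 of the list were lower and 1 higher, beside 12.7% and 5.01% of all symbols. Cbx1, a heterochromatin protein, moved the other way past the adjusted threshold, from 2.69 and 4.58 to 10.5 and 7.90 RPKM (log2 fold change 1.16, SE 0.29, adjusted p = 0.0188 in limma).

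Other zinc finger families were read by the same rule, beside 6.56% of all symbols called lower. The median log2 fold change was -0.53 over 33 Zbtb genes (2 called lower, 6.06%), -0.53 over 15 Zkscan and Zscan genes (3 called lower, 20.0%), -0.90 over 12 Zc3h genes (3 called lower, 25.0%) and -0.09 over 12 Klf genes (1 called lower, 8.33%), with 0 called higher in each. Of 7 long noncoding RNAs listed, 5 were tested. Malat1 and Neat1 are the best known as nuclear, whereas spliced Gas5 is found on ribosomes. All 5 had a negative log2 fold change with a median of -1.08. Of these, 2 were called lower and 3 passed the adjusted rule. Neat1 fell from 51.2 and 64.8 RPKM in HF to 20.6 and 18.7 RPKM in HB (log2 fold change -1.51, SE 0.25), and Snhg11 from 13.1 and 14.8 to 5.18 and 4.98 RPKM (-1.30, SE 0.24). Gas5 passed the adjusted rule only, with 24.8 and 20.5 RPKM in HF and 9.59 and 10.7 RPKM in HB (adjusted p = 0.0139 in limma). Malat1 overlapped between groups, with 76.7 and 88.9 RPKM in HF and 91.6 and 71.0 RPKM in HB (-0.03). Neat1 also had fewer reads in the footprint libraries, with 748 and 599 RPKM in HF and 33.0 and 126.1 RPKM in HB (-3.35, called lower). Of the list, 5 were tested in footprints, with a median of -0.95, 4 negative and 1 positive, and 1 called lower. The part of RNA location in the Zfp values was not tested.

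In footprints, 90 of the 227 Zfp genes were above 0 in all 4 Ribo-seq libraries, and 6 were at 0 in all. A further 39 were above 0 in both HF libraries and at 0 in both HB libraries, and 0 showed the reverse, beside a depth that was lower in HB. The first pattern thus held for 17.2% of the Zfp genes and for 7.11% of 10253 other symbols tested in mRNA. By mean mRNA level the shares were 18.1% against 16.0% at 1 to 2 RPKM, 20.0% against 11.0% at 2 to 5, 13.9% against 6.52% at 5 to 10 and 11.8% (4 genes) against 2.46% at 10 and over. On a gene of 1 kb, 3 reads correspond to 2.84 to 7.73 RPKM in HF and to 11.7 to 21.1 RPKM in HB, which is above the level of most of these genes, so a value of 0 in HB does not show that footprints were absent.

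Among the 90, 4 were called lower and 1 higher, where a footprint call in limma needs an unadjusted p under 0.05 and the same size of change. Over all 11190 symbols tested the shares were 7.86% lower and 1.58% higher, and over the 6819 symbols also above 0 in all 4 libraries they were 3.4% and 1.41%. None of the 11190 symbols passed an adjusted p of 0.05 in limma. Without HF replicate 1 the number of the 90 called lower was 0, without HF replicate 2 it was 2, without HB replicate 1 it was 6 and without HB replicate 2 it was 11, beside 3.86%, 5.96%, 22.5% and 13.4% of all symbols, and the number called higher ran from 0 to 4. The shares and medians of all symbols under other settings in this paragraph also count symbols at 0 in some libraries, so they are not of a like set. Being above 0 in all 4 libraries depends on the footprint values themselves. A filter on the mean can admit genes through HF alone, at 0 in the shallower HB libraries. With the filter on the mean alone, 171 Zfp genes were tested, 16 were called lower (9.36%) and 1 higher, and the median log2 fold change was -0.50 with 125 below 0, beside -0.43 over all 11190. The median log2 fold change of the 90 was -0.30, with 55 below 0 and 35 above, and that of 6729 other genes was -0.27. The groups did not overlap for 34 Zfp genes on the lower side and 15 on the higher side, beside 32% and 11.3% of the 6819 and 33.2% and 9.07% of all 11190. In mRNA the median of these 90 genes was -0.70. With log2 values shifted to a common median the footprint median of the 90 turned to 0.03 (all tested -0.10), and with a common sum it was -0.92 over 89 genes (all tested -1.08). Under the common sum 20 of the 89 (22.5%) were called lower, beside 25.2% of all symbols. Marker lists were read in the same footprint fit with the filter on the mean alone, so genes at 0 in HB libraries are among them. The median footprint log2 fold change was -1.25 over 7 endothelial markers (7 negative, 2 called lower), -1.11 over 6 stellate markers (6 negative, 0 called), -0.74 over 7 Kupffer cell markers (7 negative, 1 called lower) and 0.24 over 7 hepatocyte markers (2 negative, 0 called). The median was -1.59 over 2 cholangiocyte markers and -0.17 over 3 lymphocyte markers, with 0 called in each. The Kupffer cell marker called was Cd68, on 4 and 6 reads in HF and 0 in both HB libraries. A value of 0 in HB does not show that its footprints were absent. The part of these lists in the footprint values of the Zfp genes was not tested.

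By mRNA level the footprint medians of the Zfp genes were 0.13 (18 genes at 1 to 2 RPKM), -0.42 (29 at 2 to 5), -0.31 (18 at 5 to 10) and -0.43 (25 at 10 and over). The other genes at those levels had -0.24, -0.32, -0.34 and -0.23. The 29 KRAB genes among the 90 had a footprint median of 0.06 with 0 called in either direction, and the 61 without the pattern -0.44 with 4 called lower and 1 higher. Values rest on few reads here, with a median of 34.5 reads per gene over the 4 libraries.

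Zfp488 had the most footprint reads of the genes called, with 208 and 400 reads in HF and 23 and 26 in HB. That made 124.6 and 88.0 RPKM in HF and 20.8 and 42.6 RPKM in HB, a log2 fold change of -1.78 (SE 0.45, adjusted p = 0.493 in limma). Its mRNA and its footprints fell by like amounts. Zfp277, described as a Polycomb-interacting factor, had 23.6 and 26.0 RPKM in HF and 5.62 and 6.79 RPKM in HB (log2 fold change -1.84), on 3 and 2 reads in HB. Zfp639 (15.4 and 11.3 RPKM in HF, 1.93 and 3.50 in HB) and Zfp655 (40.6 and 26.7 in HF, 12.8 and 13.9 in HB) were called lower on 1 to 5 reads per HB library. Of these, Zfp277 and Zfp655 had mRNA log2 fold changes of -0.15 and -0.10.

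The remaining Zfp genes with many footprint reads did not separate the groups clearly. Zfp871 (462 reads in all) had 23.3 and 24.9 RPKM in HF and 8.51 and 32.1 RPKM in HB. Zfp706 (428 reads) had 43.8 and 55.1 RPKM in HF and 62.5 and 39.9 RPKM in HB. Zfp445 (366 reads) had 31.6 and 34.1 RPKM in HF and 21.1 and 32.6 RPKM in HB. In all 3 the HB libraries stood further apart than the HF libraries. Zfp91 (352 reads) had 34.5 and 37.0 RPKM in HF and 20.8 and 35.2 RPKM in HB. Zfp106 (234 reads), an RNA-binding protein of muscle and motor neurons, had 18.1 and 14.9 RPKM in HF and 5.53 and 10.0 RPKM in HB, with no overlap but no call (log2 fold change -1.04, SE 0.49).

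Zfp36, or tristetraprolin, binds AU-rich elements in mRNAs of cytokines and immediate early genes through fingers of the CCCH kind and recruits the deadenylase that removes their tails. It is an immediate early gene itself and lies at chr7:28376784-28380253, minus strand. Its mRNA had 144.6 and 112.8 RPKM in HF and 53.4 and 62.2 RPKM in HB, the highest mean of all 227. The log2 fold change was -1.14 (SE 0.26, unadjusted p = 0.00162), which missed the unadjusted threshold and passed the adjusted one (adjusted p = 0.0142 in limma). Its footprints went the other way, with 49.6 and 50.9 RPKM in HF and 119 and 87.8 RPKM in HB, on 34, 95, 54 and 22 reads. The log2 fold change was 1.01 (SE 0.30, unadjusted p = 0.021, adjusted p = 0.493 in limma), and it was the 1 Zfp gene called higher.

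The difference between the footprint and the mRNA change of Zfp36 was fitted as an interaction over all 8 libraries, a fit added after its values were seen. The fit had no term for the replicate number and took a common variance for both assays, although their depths differed. The difference was 2.14 on the log2 scale (SE 0.38, unadjusted p = 0.000705, adjusted p = 0.0972 in limma). Of 9455 symbols so tested 0.0106% passed an adjusted p of 0.05 and 15.8% an unadjusted p of 0.05. The highest symbol, Snord14d in HF replicate 1 and Rnu6 in HF replicate 2, took 14.6% and 10.9% of the RPKM sum in the HF footprint libraries. In both HB ones it was Mir122, at 24.1% and 29.5%. A common sum includes these symbols. Rescaling RPKM to a common sum left a footprint log2 fold change of 0.15 and a difference of 1.33 (adjusted p = 0.197). Across these and the other settings the adjusted p of the difference ran from 0.00988 to 0.557.

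Partners of Zfp36 in mRNA decay, read from a list of 20, had a median mRNA log2 fold change of -0.39 over 19 tested, with 3 called lower (15.8%, beside 6.56% of all symbols) and 0 higher. The 3 are deadenylase subunits. Cnot7 had 22.5 and 23.2 RPKM in HF and 8.41 and 5.21 RPKM in HB, Pan2 24.0 and 27.2 against 6.24 and 8.00, and Pan3 18.7 and 17.1 against 3.49 and 4.54. The scaffold Cnot1 had 8.09 and 7.04 RPKM in HF and 6.67 and 5.67 RPKM in HB and was not called. Of 19 partners of Zfp598 in ribosome quality control, 1 was called lower (5.26%), Gigyf2, with 18.9 and 16.7 RPKM in HF and 5.90 and 6.72 RPKM in HB.

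**Figure D4:**
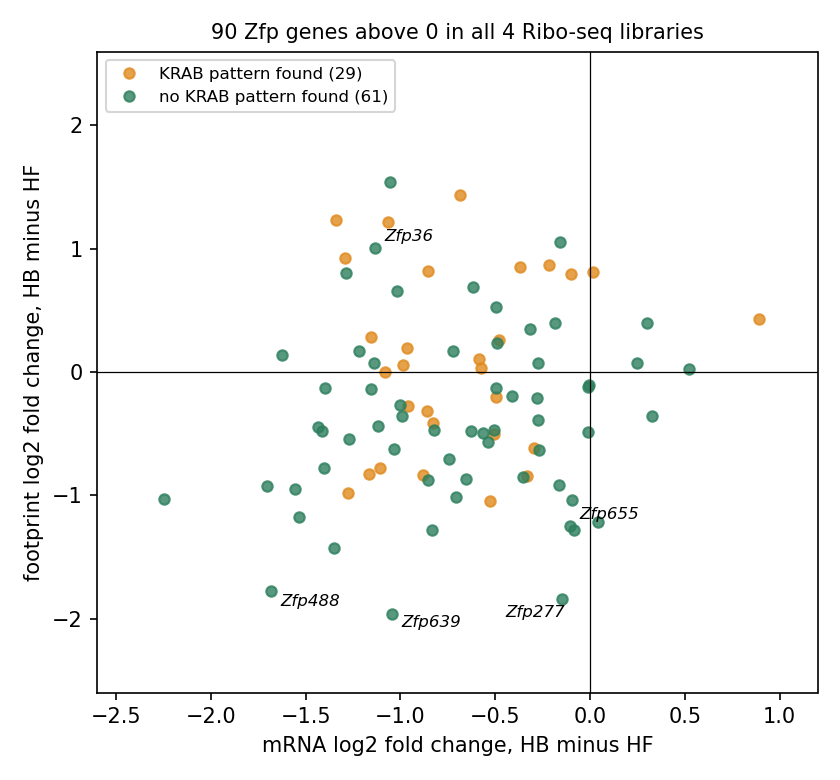
mRNA log2 fold change (horizontal axis) against footprint log2 fold change (vertical axis), both HB minus HF, for the 90 Zfp genes above 0 in all 4 Ribo-seq libraries, 1 point per gene, coloured by whether a KRAB pattern was found. The 5 named genes are those called in footprints. Most points lie left of 0, with 53 also below 0 and 30 above 0 on the vertical axis, Zfp36 among the latter.

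Set side by side, 53 of the 90 genes had both values below 0, 30 had mRNA below and footprints above 0, 5 had both above 0 and 2 had mRNA above and footprints below 0. The correlation across the 90 genes was 0.12, and across 6729 other genes 0.07, as a description over the same 8 libraries. The largest positive footprint values after an mRNA decrease were those of Zfp62 (1.54) and Zfp772 (1.43), neither called. These 2 were picked out after their values were seen.

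Promoters of 193 Zfp genes were found in RefSeq (GRCm38.p6, 250 bases before to 50 after the start). Read on both strands, the letters CCAAT stood in 50.8% of them, against 38.7% of 8197 promoters of other genes tested and 37.9% of 27025 RefSeq promoters. The GC box letters GGGCGG stood in 49.2%, 64.1% and 35.9%, the letters CCGGAA in 38.3%, 29.6% and 15.2%, and TATAAA in 5.7%, 7.4% and 14.2%. Zfp promoters held a median of 15 CpG dinucleotides per 300 bases, against 21 in other genes tested. Among Zfp genes called lower, CCAAT stood in 12 of 29 promoters (41.4%), and among the others in 86 of 164 (52.4%). The following windows of 30 bases before the start show it in 5 of the genes called lower, with CCAAT, or ATTGG where it is read from the opposite strand, in capitals.
Zfp451 (chr1:33814729-33814758, minus strand): agcggaacgagaATTGGcgtggactcaaaa
Zfp263 (chr16:3744047-3744076, plus strand): gtgagacccgacCCAATgggagacagcgca
Zfp131 (chr13:119790853-119790882, minus strand): ggcttcgcagggATTGGcgctccgggtgcg
Zfp970 (chr2:177464661-177464690, plus strand): aagactcaatagCCAATcagaacctccaca
Zfp972 (chr2:177925720-177925749, minus strand): aagactcagtagCCAATcagaaactccaca
The windows of Zfp970 and Zfp972 are identical at 28 of 30 bases and place CCAAT at 69 and 87 bases before the start. Set side by side from the start with no gaps, their 300 base promoters are identical at 71 positions.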

How the data were processed

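Per the labels and the study's methods, the authors aligned reads to mm10 with FANSe2, named edgeR among their tools, which was not used here, and deposited 1 RPKM value per gene and library. Libraries came from 2 mice per group by the methods and from pooled preparations by the labels, so p-values measure the spread between libraries. How reads shared by related genes were counted is not given in the sources used here.

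Library totals and whole reads were recovered from the steps between low RPKM values (99.98% to 99.99% of values above 0 were whole within 0.1 read). Recovered reads summed to 96.9% to 99.2% of those totals in RNA-seq and 104.4% to 108.3% in Ribo-seq, for which the cause was not tested. Symbols with a mean of at least 1 RPKM were fitted with limma 3.58.1 in R 4.3.3 (trend, group only, two-sided) on log2(RPKM + 1). Alternatives were other pseudocounts, filters and scalings, no trend, a replicate block, voom on recovered reads with TMM scaling, and leaving out each library. On simulated data 200 genes were changed by a log2 of 2. The fit called 100% of them in mRNA (10685 genes tested, 0 unchanged called) and 83% in footprints (10985 tested, 384 unchanged called). The changed genes all had a mean of at least 5 RPKM, and the spread between simulated replicates was fixed in advance. These shares thus do not apply to the lower Zfp genes or to the spread between the libraries used here.

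Coordinates, transcripts and exon overlaps are from GENCODE M21, which held 226 of the 227 genes. Fingers and KRAB boxes are patterns in translated longest reading frames. Genes named are the 10 called with the smallest p, the 6 most abundant, those at the threshold, a role list, the footprint calls and the 6 with most footprint reads. Members and lists were chosen with earlier results of these data known.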

Additional observations from a re-analysis of the deposited data

How the results depend on the processing

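In mRNA, 0 Zfp genes were called higher under every setting except without HB replicate 2 (1 gene), and the median log2 fold change of the Zfp genes was negative throughout. The number called lower (36) became 9 with no filter (1.12% of all symbols), 14 with a common median, 18 with voom on recovered reads and 65 with an adjusted p under 0.05, and leaving out 1 library gave 26 to 40. With the replicate number as a block it was 60, beside 11.5% of all symbols, although same-numbered libraries did not deviate together (r = -0.10 in mRNA, -0.01 in footprints). With the numbers crossed, an alternative chosen after seeing the data, it was 64, beside 12.2%. All 36 were among the 60, the 64 and the 65. The median (-0.65) became -0.92 with a pseudocount of 0.1, -1.09 at a mean of at least 5 RPKM, -0.38 with a common median, -0.78 with a common sum and -0.75 with voom, and -0.74 to -0.66 with 1 library left out.

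In footprints, 4 called lower became 20 with a common sum (25.2% of all symbols), 0 with an adjusted p under 0.05 and 0 to 11 with 1 library left out, with 0 when HF replicate 1, 2 when HF replicate 2 and 11 when HB replicate 2 was missing. The 1 called higher became 4 with a common median, 4 with voom, 0 with a common sum, 0 with an adjusted p and 0 to 4 with 1 library left out. The replicate block left both counts at 4 and 1. The 25.2% also counts symbols at 0 in some libraries. The median (-0.30) became -0.44 at a mean of at least 5 RPKM, 0.03 with a common median, -0.92 with a common sum and -0.058 with voom. The cause of these shifts was not tested.

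Single genes near 0 changed sign. In mRNA with a common median, Zfp120 (0.26), Zfp106 (0.18), Zfp277 (0.13), Zfp687 (0.27), Zfp568 (0.27), Zfp961 (0.20) and Zfp655 (0.17) did so. With voom the same genes gave 0.18, 0.12, 0.046, 0.23, 0.22, 0.16 and 0.12. Zfp809 was -0.027 with a common sum. In footprints with a common median these were Zfp335 (0.19), Zfp217 (0.13), Zfp592 (0.20), Zfp687 (0.22), Zfp703 (0.12) and Zfp445 (0.012). With a common sum they were Zfp263 (-0.41), Zfp622 (-0.52), Zfp809 (-0.006) and Zfp706 (-0.82), and with voom Zfp335 (0.064), Zfp217 (0.20), Zfp687 (0.45) and Zfp703 (0.29). With 1 library left out, the range of the log2 fold change crossed 0 in mRNA for Zfp120 (-0.19 to 0.39), Zfp106 (-0.23 to 0.036), Zfp277 (-0.32 to 0.03), Zfp687 (-0.078 to 0.073), Zfp91 (-0.60 to 0.055), Zfp568 (-0.17 to 0.16), Zfp809 (-0.40 to 0.44), Zfp961 (-0.43 to 0.28) and Zfp655 (-0.54 to 0.33). In footprints it did so for Zfp263 (-0.29 to 0.57), Zfp622 (-0.73 to 0.88), Zfp335 (-0.57 to 0.30), Zfp217 (-0.69 to 0.29), Zfp592 (-0.57 to 0.32), Zfp687 (-0.31 to 0.096), Zfp703 (-0.48 to 0.059), Zfp871 (-1.40 to 0.40) and Zfp706 (-0.29 to 0.34).

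Depth limits the footprint values, and 68 of the 90 genes above 0 in all 4 libraries had at least 20 reads in all.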
